A study of Mus musculus with 6 samples.

Results

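The genes described here encode RNA-binding proteins that shorten the life of messenger RNAs in lymphocytes. They are the 3 ZFP36 family genes Zfp36, Zfp36l1 and Zfp36l2, the Regnase genes Zc3h12a and Zc3h12d, and the Roquin genes Rc3h1 and Rc3h2. They were chosen by name, as the rows of the deposited count and FPKM tables that carry these 7 symbols, out of 54532 genes in the tables. All 7 were found once each and all 7 passed the filter on low counts, which left 15138 genes to test.

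All 6 libraries came from splenic CD4+ T cells of wild-type C57BL/6J mice, kept free of specific pathogens, with colitis caused by dextran sulfate sodium (DSS), a sulfated polysaccharide that injures the colonic lining when given in the drinking water. In 3 libraries the mice had received Akkermansia muciniphila, a mucin-degrading gut bacterium, every day, and in the other 3 they had received phosphate-buffered saline (PBS). Mice without colitis were not analysed here, so both groups carry the effects of DSS. The design names the libraries of a group as biological replicates, whereas the mice behind a library, by number, age or sex, and the way the cells were isolated are not stated. In each group the description of replicate 1 speaks of CD4+ cells, that of replicate 2 of CD5+ cells and that of replicate 3 of CD6+ cells, although a separate cell type entry has CD4+ T cells throughout.

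Proteins with CCCH zinc fingers of the ZFP36 family bind AU-rich elements in the 3′ untranslated region and recruit the CCR4-NOT deadenylase, which removes the poly(A) tail. Regnase-1, the product of Zc3h12a, is an endonuclease that cuts stem-loops in inflammatory transcripts, and Roquin-1 and Roquin-2, the products of Rc3h1 and Rc3h2, bind similar stem-loops, among them the constitutive decay element. In T cells these proteins restrain cytokine and costimulator messages, and the signalling protease MALT1 cleaves Regnase-1 and the Roquins after antigen receptor stimulation.

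Sequences of the 2 kinds of element are shown first because the transcripts of several of these genes carry them too. The AU-rich nonamer TTATTTATT, the preferred ZFP36 site, was searched on the sense strand of the longest 3′ untranslated region of each gene in GENCODE release M21, and occurred in 7.6% of 20971 genes. It was found in 5 of the 7 genes, 1 time in each, and its letters are in capitals below. The numbers of bases after the stop codon at which it began were 589 for Zfp36, 1404 for Zfp36l1, 821 for Zfp36l2, 2256 for Rc3h1 and 2095 for Rc3h2.
Zfp36: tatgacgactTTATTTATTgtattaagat
Zfp36l1: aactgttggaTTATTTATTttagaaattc
Zfp36l2: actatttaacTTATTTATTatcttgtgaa
Rc3h1: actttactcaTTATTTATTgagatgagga
Rc3h2: caaagacattTTATTTATTttactctgta

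The core of the constitutive decay element was searched as TTC and GAA on either side of a pyrimidine, a purine and a pyrimidine. It occurred in 5.36% of 20971 genes, and in Rc3h1 (2 matches) and Rc3h2 (1 match) among the 7. Of 33 transcripts reported as targets, 8 held a match. The matches are capitalised below for both Roquin genes and for 3 of these targets, known for Roquin or Regnase-1. These 3 were lower with Akkermansia by the edgeR test given further on: Icos, a costimulatory receptor, and the atypical IkB genes Nfkbiz and Nfkbid. The other targets with a match, Tnf, Ctla4, Ier3, Fos and Cdk6, did not pass that test and are not shown.
Rc3h1: tttgtttttgTTCTGTGAAtgaactttat
Rc3h1: agccaataacTTCTGTGAAgttgcctttt
Rc3h2: tttaattaacTTCTGTGAAgttgtttact
Icos: agaacaaaatTTCTGTGAAataaaatctg
Nfkbiz: tgtaagttgtTTCTATGAAacaaacccat
Nfkbid: tctaggtgatTTCTGTGAAatcgagccca
Nfkbid: acttgattgtTTCTGTGAAacactctaga

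Neither Regnase gene held a match to the nonamer, to its shorter form TATTTAT or to the decay element core, in 856 bases for Zc3h12a and 2327 bases for Zc3h12d. Stem-loops of other sequence, which Regnase-1 may cut, were not searched for in any gene. TATTTAT was present 3 times in each ZFP36 family gene. Among genes with a 3′ untranslated region within 20% of the same length, it occurred in 19.5% for Zfp36, 38.1% for Zfp36l1 and 38% for Zfp36l2. The Roquin genes, with 2 matches in 7181 bases for Rc3h1 and 3 in 5331 bases for Rc3h2, have much longer untranslated regions than the median of 954 bases, and 77.4% and 68.7% of genes of like length held TATTTAT. Shares among genes of like length were not computed for the nonamer or the decay element. Their shares over all genes, 7.6% and 5.36%, thus make no allowance for the length of the Roquin genes. A match is a description of the letters and does not show that a protein binds there.

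Transcripts of the Regnase-1 gene Zc3h12a fell with Akkermansia to 0.574 of the PBS level, and those of its paralogue Zc3h12d rose to 1.2 times the PBS level. The most abundant of the 7, Zfp36l2, averaged 1012 ± 43.2 against 1652 ± 466 CPM (counts scaled to a common library size; SD, n = 3 in each group) but did not pass the test. Rc3h1 and Rc3h2 had estimates of -0.20 and -0.13 (log2 fold change, Akkermansia over PBS) that did not pass either, and Zfp36 and Zfp36l1 had estimates of 0.08 and -0.02. By the edgeR quasi-likelihood test, with Benjamini-Hochberg adjustment over all 15138 genes and a threshold of 0.05, 2 of the 7 were thus called, 1 higher and 1 lower. Over all genes 15.6% were called, 7.32% higher and 8.28% lower. The groups did not overlap in 5 of the 7 genes, against 34.9% of all genes tested.

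**Figure D1:**
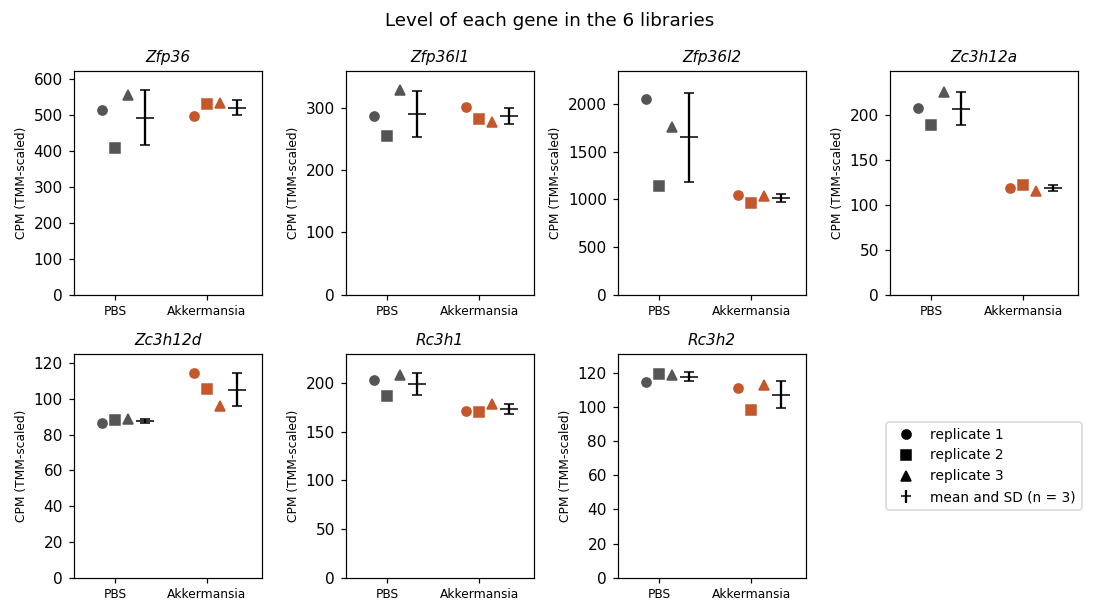
Level of the 7 genes in CPM (vertical axes, each starting at 0) in the 3 PBS and 3 Akkermansia libraries; symbols mark the replicate number and bars the mean and SD of 3. Zc3h12a is lower in every Akkermansia library (116 to 122) than in any PBS library (189 to 225), and PBS 2 is the lowest PBS library for 5 of the genes.

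The libraries held 15032257 to 16677923 counts each, so that the least abundant of the 7, Zc3h12d and Rc3h2, still had 1343 or more counts in every library. Of 12 T cell markers 4 rose and 1 fell, with a summed level of 5875 to 6211 CPM with Akkermansia and 5673 to 5823 CPM with PBS, and Cd4 itself was 884 ± 29.6 and 688 ± 31.9 CPM (SD, n = 3). All 21 B cell markers rose, with a summed level of 2260 to 2732 CPM against 1414 to 1470 CPM, and both CD8 T cell markers rose, with sums of 61.3 to 93.4 against 19.1 to 20.2 CPM. Of NK cell markers 5 of 9 tested rose, of dendritic cell markers 4 of 8, of monocyte and macrophage markers 2 of 13 and of neutrophil markers 1 of 9, and 1 of 8 erythroid markers fell. Of 8 tested plasma cell markers 2 fell and 0 rose, although 6 had estimates above 0, the median log2 fold change was 0.57 and the summed level was 1063 to 1339 CPM with Akkermansia and 415 to 949 CPM with PBS. The neutrophil genes Mpo, Elane and Ly6g and the plasma cell gene Tnfrsf17 were too low to test, and no marker of these lists was at 0 in every library. The part of these other cells in the changes of the decay regulators was not tested, and in bulk samples fewer cells of a type and less RNA per cell cannot be told apart. Scaled to the T cell markers instead of the trimmed mean of M values (TMM), the share of higher genes among all called went from 46.9% to 25.1%.

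Zc3h12a (ENSMUSG00000042677) had 119, 122 and 116 CPM in the Akkermansia libraries and 208, 189 and 225 CPM in the PBS libraries. The Akkermansia libraries lie close together and all lie below the lowest PBS library. The fall was 0.80 on the log2 scale (SE 0.08, 95% interval of the fold 0.512 to 0.643, edgeR adjusted p = 4.45e-05), and its p ranked 34 among 15138 genes. The gene was called lower under all 15 other settings fixed with the design (log2 fold change from -0.86 to -0.74 with 1 library left out). No other annotated gene overlaps it in GENCODE M21.

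Zc3h12d (ENSMUSG00000039981) encodes Regnase-4, also called TFL, a lymphocyte protein that can limit T cell activation. Its levels were 114, 105 and 95.8 CPM with Akkermansia and 86.6, 88.2 and 88.7 CPM with PBS. The groups do not overlap, and the Akkermansia libraries spread more widely than the PBS libraries. The rise was 0.26 (log2, SE 0.08, 95% interval of the fold 1.07 to 1.34, edgeR adjusted p = 0.0364). It was not called without Akkermansia 1 (adjusted p = 0.167), Akkermansia 2 (0.12) or PBS 1 (0.107), nor when scaled to T cell markers (0.149).

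The shares of the Regnase pair restate the levels of the 2 genes. A fall of Zc3h12a alone would lower its share, so the share does not show a rise of Zc3h12d. FPKM values, which are scaled for gene length and so allow genes to be set side by side, were 41.1, 42.5 and 40.5 for Zc3h12a with Akkermansia and 71.3, 65.7 and 77.5 with PBS. Zc3h12a held 61.7% ± 1.89 of the summed FPKM of the pair with Akkermansia and 77% ± 1.55 with PBS (SD, n = 3). The shares did not overlap between groups, and the two-sided exact permutation p was 0.1, the smallest that 3 against 3 libraries can give (0.125 after Benjamini-Hochberg adjustment over 5 shares). On log2(FPKM + 1) the rise of Zc3h12d itself was not called (limma-trend, adjusted p = 0.0664).

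**Figure D2:**
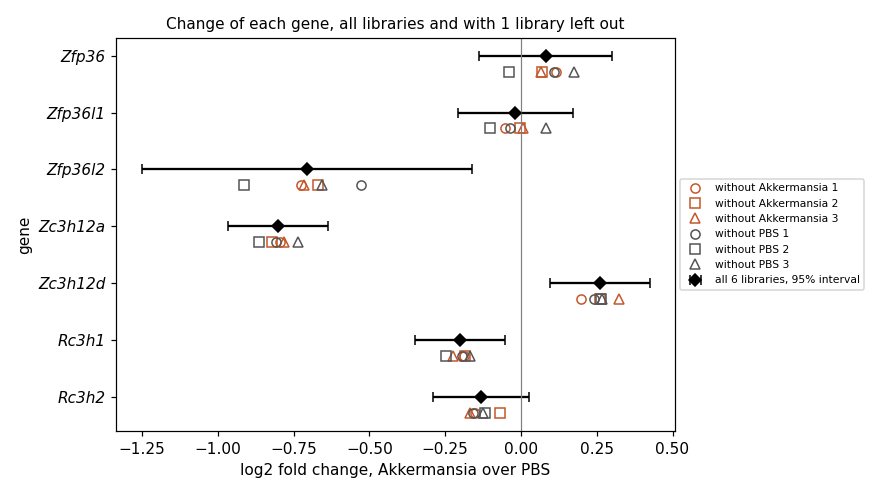
Log2 fold change of each gene (horizontal axis, Akkermansia over PBS) from all 6 libraries with its 95% interval (filled diamonds), and with each library left out (open symbols). The estimate of Zc3h12a stays between -0.86 and -0.74, whereas that of Zfp36l2 runs from -0.91 without PBS 2 to -0.53 without PBS 1.

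Zfp36l2 (ENSMUSG00000045817), which helps to keep naive lymphocytes quiescent, had 1043, 963 and 1030 CPM with Akkermansia and 2052, 1140 and 1763 CPM with PBS. PBS 2 lies next to the Akkermansia libraries and far below the other PBS libraries, although the groups do not overlap. The log2 fold change was -0.71 (SE 0.22, 95% interval of the fold 0.42 to 0.894, edgeR adjusted p = 0.0921). Without PBS 2 the gene was called lower (-0.91, adjusted p = 8.3e-06), and DESeq2 called it with all libraries (-0.70, adjusted p = 0.0217). With the replicate number as a further term in edgeR it was also called lower (-0.67, adjusted p = 0.0169). It was called in 3 of the 15 other settings fixed with the design. An antisense gene on the opposite strand, AC132455.1, overlaps Zfp36l2 in GENCODE M21 and has no entry among the deposited counts. Whether its reads were counted for Zfp36l2 was not tested.

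Immediate early genes, the first to be transcribed after a stimulus, set PBS 2 apart in the same way. The summed level of 21 such genes, Zfp36 not among them, was 8063 CPM in PBS 2, within the Akkermansia range of 7837 to 8092 CPM, and 11434 and 11574 CPM in PBS 1 and PBS 3. The summed level of the 7 decay regulators was 2386 CPM in PBS 2, 2271 to 2358 CPM with Akkermansia, and 3465 and 3289 CPM in PBS 1 and PBS 3. Zfp36l2 contributed 963 to 1043 CPM of that sum with Akkermansia, 1140 CPM in PBS 2, and 2052 and 1763 CPM in PBS 1 and PBS 3. By the edgeR test 7 of the 21 fell and 0 rose, while 8.28% of all genes tested fell and 7.32% rose. The part of the immediate early genes in the levels of Zfp36l2 was not tested.

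Zfp36 (ENSMUSG00000044786), which encodes tristetraprolin, the founding AU-rich element binding protein and itself an immediate early gene, had 499, 532 and 534 CPM with Akkermansia and 516, 408 and 556 CPM with PBS. The groups overlap, with the Akkermansia libraries inside the PBS range. The log2 fold change was 0.08 (SE 0.10, 95% interval of the fold 0.908 to 1.23, adjusted p = 0.645). The sign turned without PBS 2, the lowest library (-0.04).

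Zfp36l1 (ENSMUSG00000021127), a paralogue that acts with Zfp36l2 in lymphocyte development, had 301, 281 and 277 CPM with Akkermansia and 286, 255 and 329 CPM with PBS. These groups also overlap, and the lowest and highest of the 6 libraries are both PBS. The log2 fold change was -0.02 (95% interval of the fold 0.865 to 1.13, adjusted p = 0.913), and its sign turned without Akkermansia 3 (0.01) or PBS 3 (0.08). A long noncoding gene annotated on the opposite strand, Gm26669, had 62 to 170 counts per library, and without knowledge of the strand setting its reads cannot be told from those of Zfp36l1.

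Within the ZFP36 family Zfp36l2 held 53.8% ± 1.20 of the summed FPKM with Akkermansia and 65.6% ± 4.53 with PBS (SD, n = 3). Zfp36 held 28.2% ± 1.46 and 20.4% ± 2.20, and Zfp36l1 held 18% ± 0.726 and 14% ± 2.33. None of the 3 shares overlapped between groups, including PBS 2, in which Zfp36l2 held 61.4% against at most 54.7% in an Akkermansia library. The exact permutation p was again 0.1 for each share, the smallest possible (adjusted 0.125). Shares of the same sum are tied, as a smaller share of Zfp36l2 leaves larger shares for the others. The 3 are therefore not separate results.

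**Figure D3:**
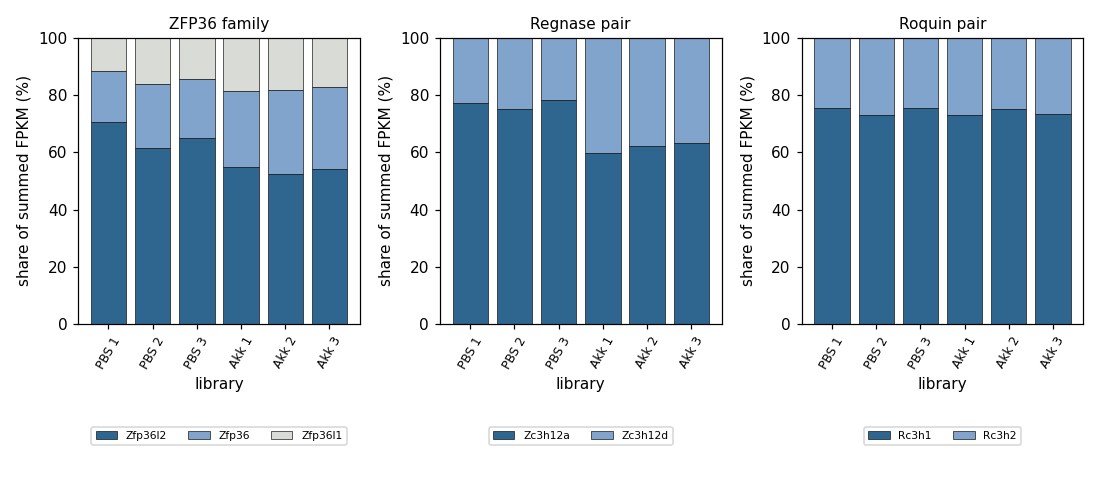
Share of each gene in the summed FPKM of its family (vertical axis, percent, 0 to 100) in the 6 libraries; Akk stands for Akkermansia. Zc3h12a takes 75.3% to 78.3% of the Regnase pair in PBS libraries and 59.6% to 63.2% in Akkermansia libraries, and the shares of the Roquin pair overlap between the groups.

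Rc3h1 (ENSMUSG00000040423), whose product Roquin-1 limits follicular helper T cells, had 171, 170 and 179 CPM with Akkermansia and 203, 187 and 208 CPM with PBS. Every Akkermansia library lies below every PBS library. The log2 fold change was -0.20 (SE 0.07, 95% interval of the fold 0.785 to 0.964, edgeR adjusted p = 0.0654), with a call without PBS 2 (-0.25, adjusted p = 0.0216) and when scaled to T cell markers (-0.28, adjusted p = 0.0214).

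Rc3h2 (ENSMUSG00000075376), which encodes the partly redundant Roquin-2, had 111, 97.9 and 113 CPM with Akkermansia and 114, 119 and 118 CPM with PBS. The groups are apart by a narrow margin, and Akkermansia 2 is the lowest library. The log2 fold change was -0.13 (95% interval of the fold 0.818 to 1.02, adjusted p = 0.25). Rc3h1 held 73.8% ± 1.17 of the summed FPKM of the Roquin pair with Akkermansia and 74.6% ± 1.35 with PBS (SD, n = 3), a difference within the spread of libraries (exact permutation p = 0.4, two-sided, adjusted 0.4).

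By FPKM the order of the 7 levels was the same in both groups, from Zfp36l2 through Zfp36, Zfp36l1, Zc3h12a, Zc3h12d and Rc3h1 to Rc3h2. Mean FPKM ran from 287 ± 12.6 for Zfp36l2 to 5.46 ± 0.424 for Rc3h2 with Akkermansia, and from 464 ± 128 to 5.95 ± 0.172 with PBS (SD, n = 3). Neighbours in this order did not overlap in either group. In the PBS group Zfp36l1 had 85.6 FPKM or more and Zc3h12a, the next in order, 77.5 or less. With Akkermansia the same neighbours lay at 93.1 FPKM or more and 42.5 or less. By mean FPKM over the 6 libraries Zfp36l2 ranked 88, Zfp36 257 and Zfp36l1 416 among the genes tested, whereas Rc3h2 ranked 7242.

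**Figure D4:**
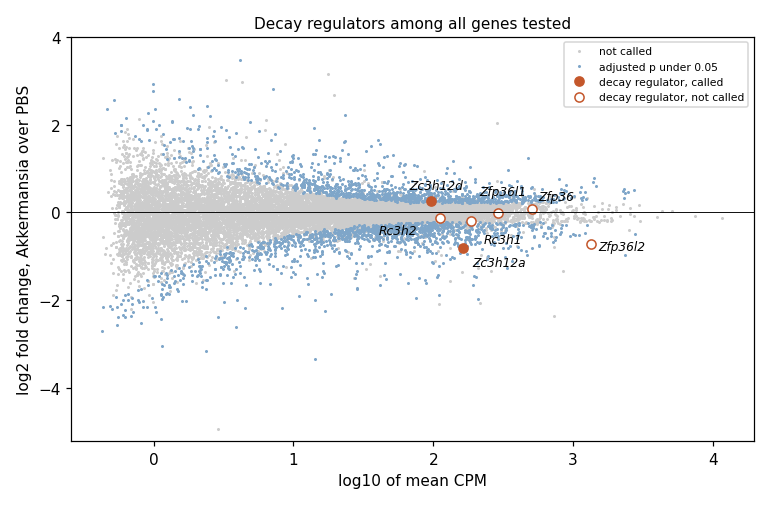
Log2 fold change (vertical axis, Akkermansia over PBS) against the log10 of the mean CPM for the 15138 genes tested, with the 7 decay regulators as large circles, filled where called. Zc3h12a lies among the called lower genes, Zc3h12d at the lower edge of the called higher genes, and Zfp36l2 is far to the right and not called.

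The promoters of the Regnase genes are shown because only these 2 of the 7 passed the test, in opposite directions. They are the 250 bases before the RefSeq transcription start in GRCm38.p6, an older build than the submitters' GRCm39, at chr4:125127882-125128131 on the minus strand for Zc3h12a and chr10:7832220-7832469 on the plus strand for Zc3h12d. Capitals mark the GC box GGGCGG on either strand, the motif of SP and related KLF factors.
Zc3h12a: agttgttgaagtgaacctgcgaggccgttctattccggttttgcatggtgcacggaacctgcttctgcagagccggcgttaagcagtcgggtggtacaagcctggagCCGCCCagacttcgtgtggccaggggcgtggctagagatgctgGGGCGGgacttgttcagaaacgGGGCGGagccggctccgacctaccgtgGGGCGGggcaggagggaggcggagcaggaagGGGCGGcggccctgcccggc
Zc3h12d: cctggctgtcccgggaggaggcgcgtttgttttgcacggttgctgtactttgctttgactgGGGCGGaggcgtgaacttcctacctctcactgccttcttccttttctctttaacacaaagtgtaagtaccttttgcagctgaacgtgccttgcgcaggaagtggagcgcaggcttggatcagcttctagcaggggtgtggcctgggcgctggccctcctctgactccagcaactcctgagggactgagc

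The Zc3h12a stretch holds 5 GC boxes and the Zc3h12d stretch 1, and 35.7% of 32851 promoter windows of 300 bases hold at least 1. Rc3h1, which was not called, held 6 in its window of 300 bases. Zfp36 held 1, and Zfp36l1 and Rc3h2 held 0. Of the 7 genes 6 had a promoter in the RefSeq table. The NF-kB consensus, searched on both strands, matched in none of these 6 windows, and in 5.8% of all windows. The CArG box of serum response factor, found in 1.63% of all windows, matched 1 time in Zfp36. The AP-1 motif TGANTCA, found in 7.81%, matched in Zfp36l1 and Rc3h1. The EGR motif GCGNGGGCG (5.55% of all windows) matched in Zfp36, and the TATA box TATAAA (13.6%) in Zfp36l1. The cAMP response element core TGACG (20.8%) matched in Zc3h12a, and the full element TGACGTCA (1.79%) in none. These matches describe the letters alone.

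In the machinery that the decay regulators recruit, the share of genes called was near the 15.6% of all genes tested. The 14 CCR4-NOT and PAN deadenylase genes included 2 that rose and 1 that fell (median log2 fold change 0.02, and -0.01 over all genes tested). Cnot3, a scaffold subunit, had 94 ± 5.25 CPM with PBS and 123 ± 3.83 CPM with Akkermansia (SD, n = 3), a rise of 0.39 (log2, SE 0.07, edgeR adjusted p = 0.00286), while Cnot7, a catalytic deadenylase, fell by 0.51 (SE 0.07, adjusted p = 0.000391). The other call, of the catalytic subunit Cnot8 (0.30, adjusted p = 0.0293), was lost without any 1 library other than PBS 2 (adjusted p up to 0.118). Among 16 decapping and 5′ to 3′ decay genes 1 rose and 1 fell (median -0.01), and among 13 tested exosome genes 1 rose and 1 fell (median 0.02). Upf1, the helicase with which Regnase-1 acts, rose by 0.23 (adjusted p = 0.0401), a call lost without any 1 library other than PBS 3 (up to 0.18). Lsm4, of the Lsm ring that assists decapping, fell by 0.25 (adjusted p = 0.0331), lost without any Akkermansia library or PBS 1 (up to 0.131). Skiv2l, the exosome helicase, rose by 0.30 (adjusted p = 0.0308), lost without any 1 library other than PBS 3 (up to 0.111), and the exosome nuclease Dis3 fell by 0.36 (adjusted p = 0.0109). The numbers that rose or fell in these 3 lists were 0 to 2 in every fit without 1 library.

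Genes that act on the decay regulators moved in both directions, 5 of 19 higher and 4 lower (median 0.03). Over all genes tested 7.32% were higher and 8.28% lower (median -0.01). Arid5a, an RNA-binding protein that protects Regnase-1 targets, had 202 ± 32.6 CPM with PBS and 138 ± 3.92 CPM with Akkermansia (SD, n = 3), and fell by 0.55 on the log2 scale (SE 0.10, adjusted p = 0.00528). Bcl10, the adaptor that activates MALT1, fell by 0.45 (adjusted p = 0.00287), and Malt1 itself did not pass (-0.22, adjusted p = 0.114). The 14-3-3 genes Ywhab and Ywhah, whose protein family binds phosphorylated tristetraprolin, rose by 0.39 and 0.36 (adjusted p = 0.00199 and 0.0032), while Ywhaz fell by 0.24 (0.0351, lost without any Akkermansia library or PBS 1, up to 0.164). Mapkapk2, the kinase that inactivates tristetraprolin, did not pass (-0.13, adjusted p = 0.326). The number higher dropped to 3 with Akkermansia 1 left out and to 2 with Akkermansia 2, Akkermansia 3 or PBS 1 left out, and the number lower to 2 with Akkermansia 2 or Akkermansia 3 left out.

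Ikbke, a kinase that can phosphorylate Regnase-1, rose by 0.33 (adjusted p = 0.0141), lost without any Akkermansia library or PBS 1 (up to 0.0664). Ppp2ca, the catalytic subunit of a phosphatase that restores tristetraprolin activity, fell by 0.30 (0.0107), lost without Akkermansia 2 or Akkermansia 3 (up to 0.0701).

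Other AU-rich element binding proteins had 1 rise and 2 falls among 10 genes (median -0.01), while 7.32% of all genes tested rose and 8.28% fell. Ncl, nucleolin, fell by 0.47 (adjusted p = 0.00101), and Hnrnpd, the decay factor AUF1, fell by 0.32 (adjusted p = 0.00891, and 0.0511 without Akkermansia 2). Khsrp, a decay-promoting KH domain protein, rose by 0.29 (adjusted p = 0.0199), lost without Akkermansia 2 or Akkermansia 3 (up to 0.0936), and then no gene of the list rose. Without PBS 3, 2 genes rose.

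Among 44 tested genes of the wider CCCH zinc finger family 9 fell and 1 rose, with a median of -0.16. For all genes tested 8.28% fell and 7.32% rose, with a median of -0.01. Tiparp, an ADP-ribosyltransferase with a CCCH finger, had 129 ± 17.4 CPM with PBS and 44.6 ± 4.40 CPM with Akkermansia (SD, n = 3), and fell by 1.54 on the log2 scale (SE 0.11, adjusted p = 1.48e-05). Zrsr1, a U2AF-related splicing gene that lies within an intron of Commd1, fell by 0.83 (adjusted p = 7.65e-05), Zc3h6 by 0.76 (adjusted p = 0.000578) and the splice site factor U2af1 by 0.40 (adjusted p = 0.00302). Zgpat rose by 0.54 (adjusted p = 0.00309). The falls numbered 4 without Akkermansia 2 and 6 without Akkermansia 3, and 15 when scaled to T cell markers, and 2 genes rose without PBS 2 and 4 without PBS 3. The remaining Regnase paralogues were scarce, Zc3h12b at 2.57 ± 0.296 and 3.8 ± 0.696 CPM and Zc3h12c at 3.70 ± 0.0803 and 3.13 ± 0.373 CPM with Akkermansia and PBS (SD, n = 3), and neither passed (adjusted p = 0.17 and 0.553).

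Of 33 transcripts reported as targets of these proteins 28 were tested, of which 10 fell and 1 rose, with a median of -0.42 against -0.01 over all genes. Among all genes tested 8.28% fell and 7.32% rose. The list was drawn up with earlier results for some of its genes known, so its direction is not independent evidence, and 3 of its genes (Ier3, Dusp1 and Fos) are also on the immediate early list. The 10 that fell were Rel, Nfkbiz, Nfkbid, Tnfrsf4, Icos, Tfrc, Irf4, Il10, Lif and Il2. Rel, the NF-kB subunit c-Rel and a Regnase-1 target in T cells, had 170, 157 and 170 CPM with Akkermansia and 334, 309 and 349 CPM with PBS (0.501 of the PBS level, SE 0.07 on the log2 scale, adjusted p = 1.48e-05). Zc3h12a and Rel were thus each lower in every Akkermansia library than in any PBS library.

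Nfkbiz had 270, 231 and 247 CPM with Akkermansia and 435, 389 and 487 CPM with PBS (log2 fold change -0.81, adjusted p = 0.000127). Tnfrsf4, which encodes the costimulatory receptor OX40, fell by 0.76 (log2, SE 0.15, adjusted p = 0.00807), and Tfrc, the transferrin receptor, by 0.69 (SE 0.12, adjusted p = 0.00416). The groups of these 3 transcripts do not overlap. Nfkbid fell by 0.68 (adjusted p = 0.0138), lost without Akkermansia 1, Akkermansia 3 or PBS 3 (up to 0.0639), and Icos fell by 0.57 (adjusted p = 0.0181), lost without Akkermansia 2, Akkermansia 3 or PBS 2 (up to 0.0717). Irf4, a transcription factor of activated T cells, fell by 0.28 (adjusted p = 0.0272), lost without any 1 library other than PBS 2 (up to 0.147). Ctla4, an inhibitory receptor whose groups also do not overlap, averaged 162 ± 48.5 and 324 ± 64.0 CPM (SD, n = 3) and did not pass (adjusted p = 0.0824).

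Cytokine targets were scarcer. Il10, which encodes an immunoregulatory cytokine, had 10.8 ± 3.25 CPM with PBS and 4.44 ± 1.15 CPM with Akkermansia (SD, n = 3), and fell by 1.28 on the log2 scale (SE 0.25, adjusted p = 0.00539). Il2, the T cell growth factor, was counted 12, 8 and 10 times with Akkermansia but 39, 18 and 33 times with PBS (0.354 of the PBS level, adjusted p = 0.0298), a call lost without any 1 library other than PBS 2 (up to 0.123). Lif, an interleukin-6 family cytokine, fell by 1.07 (adjusted p = 0.0108, and 0.0574 without Akkermansia 3). Ccl3, a chemokine, rose by 0.99 (adjusted p = 0.0131), lost without Akkermansia 2 or Akkermansia 3 (up to 0.0616). Tnf, the classical tristetraprolin target, had 24.3 ± 4.97 and 31.9 ± 6.83 CPM (SD, n = 3) with Akkermansia and PBS and did not pass (adjusted p = 0.181), nor did Ifng (adjusted p = 0.472). Il6, Il3, Csf2, Il12b and Cxcl1 were too low to test. With Akkermansia 3 left out 5 targets fell, and 0 rose with Akkermansia 2 or Akkermansia 3 left out.

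**Figure D5:**
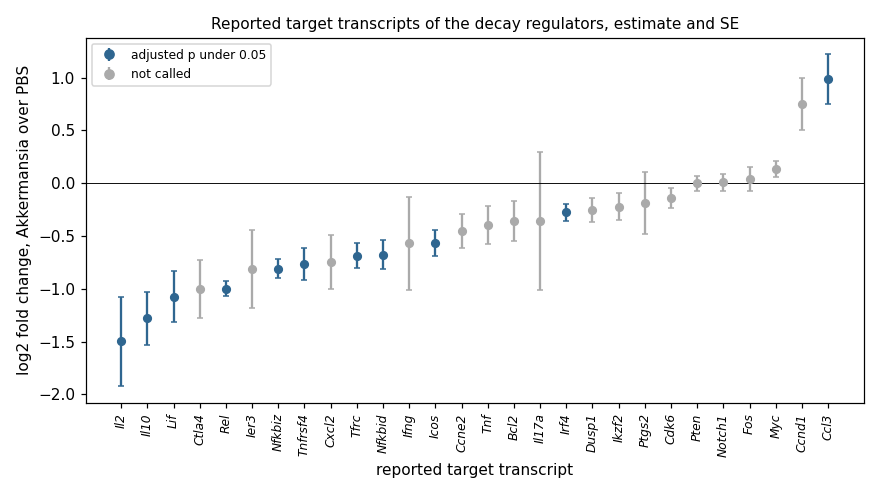
Log2 fold change with SE (vertical axis, Akkermansia over PBS) of the 28 tested target transcripts, in order of the estimate; called genes are dark. The 10 called lower genes run from -1.50 for Il2 to -0.28 for Irf4, and Ccl3 is the 1 called higher gene (0.99).

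The genes whose profile over the 6 libraries lay nearest to that of a called decay regulator were found among 8456 genes with a mean of at least 10 CPM, by the root mean square distance of log2 CPM centred on each gene's mean. For Zc3h12a they were Mex3c, which encodes an RNA-binding ubiquitin ligase (distance 0.0381, log2 fold change -0.76), and Zrsr1 (0.0382, -0.83). For Zc3h12d they were Ddi2, a protease gene (0.025, 0.24, adjusted p = 0.0423), and Tcirg1, a proton pump subunit gene (0.031, 0.23, not called, adjusted p = 0.0565). These profiles include the difference between the groups, so a gene is near in part because it differed in the same direction by a like amount.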

How the data were processed

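Poly(A) RNA of the 6 libraries was sequenced (per the labels' protocols), and each has the batch label 1. The authors deposited raw counts per gene, and FPKM values rounded to 2 decimals. GRCm39 is the build that the submitters' processing notes name. Not given in the sources used here are the aligner, the counter, the annotation and whether counting used strand. Members, lists and tests were chosen with earlier results of these data known.

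Counts were tested in edgeR 4.0.16 (R 4.3.3): filterByExpr (minimum count 10, total 15), TMM factors, robust quasi-likelihood F test, two-sided, group as the only term, Benjamini-Hochberg over 15138 genes, threshold 0.05. SE is the absolute log2 fold change over the root of F; intervals use the moderated degrees of freedom. Named genes are the 7 decay regulators, all called targets, up to 4 called genes per direction from each other pathway list, and the 2 nearest profiles of each called member; others were chosen after their values were seen. One gene that the rule names is not reported here. On simulated counts for 14814 genes, 52% of genes changed 1.5-fold and 76% of those changed 2-fold were recovered. limma 3.58.1 and DESeq2 1.42.0 gave alternatives. Replicate pairs differed by 4.45 to 19.8 times the sampling variance, so none was counted as a repeat.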

Additional observations from a re-analysis of the deposited data

How the results depend on the processing

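Under 15 settings fixed with the design, Zc3h12a was called lower in all and Zfp36, Zfp36l1 and Rc3h2 were called in none. Scaling to T cell markers was added after the data were seen. In fits without 1 library the log2 fold change ranged from -0.04 to 0.18 for Zfp36, -0.10 to 0.08 for Zfp36l1, -0.91 to -0.53 for Zfp36l2, 0.20 to 0.32 for Zc3h12d and -0.25 to -0.17 for Rc3h1. Zfp36 turned sign without PBS 2 (-0.038), and Zfp36l1 without Akkermansia 3 (0.0069) or PBS 3 (0.082). Zfp36l2 was called with DESeq2 (-0.70), and when scaled to T cell markers (-0.79), as was Rc3h1 (-0.28). Zc3h12d was not called on log2(FPKM + 1) (0.25), log2(FPKM + 0.1) (0.26) or when scaled to T cell markers (0.18). The cause was not tested.

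Replicate numbers correlated weakly across groups (r = 0.0846, 0.0774 and 0.0303 for numbers 1, 2 and 3, over genes), so they were not taken as pairs. Even so, every library correlated best with its own number. The descriptions of CD4+, CD5+ and CD6+ cells also go by number in both groups. With a replicate block 1205 genes were higher and 1333 lower, against 1108 and 1253, Zfp36l2 was called (-0.67, adjusted p = 0.0169), 2 of the 7 genes fell, and 2 targets rose.

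Numbers called without 1 library, higher then lower, were 0 to 1 and 1 to 3 for the 7 genes, 1 to 2 and 1 to 2 for deadenylases, 0 to 1 and 0 to 2 for decapping, 0 to 1 higher for the exosome, 2 to 6 and 2 to 6 for regulators, 0 to 2 and 1 to 2 for AU-rich element binding proteins, 1 to 4 and 4 to 12 for other CCCH genes, and 0 to 2 and 5 to 11 for targets. Scaled to T cell markers, 0 of the 7 genes were higher and 3 lower, deadenylases had 1 and 2, decapping 0 and 2, the exosome 0 higher, regulators 2 and 6, AU-rich element binding proteins 0 higher and other CCCH genes 15 lower. On both FPKM scales 0 of the 7 genes, 1 deadenylase, 0 decapping and 0 exosome genes were higher. DESeq2 called 2 of the 7 genes lower, 0 decapping genes lower, 2 AU-rich element binding proteins higher and 2 targets higher. With no filter 2 AU-rich element binding proteins, 2 other CCCH genes and 2 targets were higher, with library totals 2 AU-rich element binding proteins and with limma-voom 2 targets. The 7 genes had 1343 counts or more in every library, and how far depth limited each was not tested.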
